A study of Mus musculus with 6 samples.

Results

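Myelin in peripheral nerve was followed through 8 genes for proteins of the Schwann cell sheath: Mbp, Mag, Pmp22, Prx, Mal, Cldn19, Gjb1 and Pllp. They were taken by gene symbol from the deposited table, which holds 16415 genes, and all 8 were found and passed the filter on low values. The samples were bulk messenger RNA libraries of mouse trigeminal ganglion, the sensory ganglion of the head, all with a wild-type genotype. Of the 6 libraries, 3 belonged to the treatment named NC-up and 3 to the treatment named SETDB2-up. The labels give no age, sex or strain, do not spell out either name and do not say how the treatment was given. No label ties a library to an animal of its own, so the p-values reflect library-to-library spread alone, which may be technical.

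Schwann cells wrap single axons of peripheral nerve in many layers of membrane, which is compacted by membrane proteins from outside and by basic protein from the cytoplasmic side. SOX10 and EGR2, the latter also called KROX20, are the transcription factors best known for switching on this programme, and the NAB proteins act with EGR2. Most of the 8 genes are not unique to Schwann cells: Mbp, Mag, Mal, Gjb1 and Pllp are also used by oligodendrocytes, the myelinating cells of the central nervous system. Several cause inherited neuropathy when mutated, among them the human counterparts of Pmp22, Prx and Gjb1.

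The depth was 19334997 to 23501386 recovered reads per library, and Setdb2, the gene named in the treatment, measured 69.9, 58.4 and 71.5 normalised reads in NC-up against 113, 97.6 and 104 in SETDB2-up (adjusted p = 0.0253, limma). The Setdb2 call passed under 11 of 19 alternative settings and was lost after the correction for GC content described below (log2 0.49, adjusted p = 0.139, limma, against 0.65 before it). Genes of the ganglion's own cells were present. The 39 other genes of myelin and the Schwann cell sheath summed to 294947 to 299551 normalised reads in NC-up against 279474 to 289691 in SETDB2-up, and the 22 sensory neuron genes to 535159 to 561739 normalised reads in NC-up against 540662 to 558745 in SETDB2-up. RNA of other tissues was present too. The liver list summed to 4270.4 to 5300.1 in NC-up against 5410.2 to 12156 in SETDB2-up. Nearly all of its NC-up sum was Trf, also listed here for oligodendrocytes, at 5219, 4192 and 4432. In SETDB2-up libraries 1, 2 and 3 Trf measured 4559, 3972 and 5304, so library 3 held little of the list beyond it. Alb, the gene for serum albumin, was listed at 0 in every NC-up library and at 1673, 3769 and 11.6 in SETDB2-up libraries 1, 2 and 3. Each member is therefore also given without SETDB2-up libraries 1 and 2, which leaves 1 library whose spread is assumed to be that of NC-up.

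Of the 8 genes, 3 fell and 0 rose in SETDB2-up. Mag fell by 20.2%, Prx by 11.5% and Cldn19 by 11.5%, while Mbp, Pmp22, Mal, Gjb1 and Pllp did not pass the threshold (limma, Benjamini-Hochberg adjusted p under 0.05 over 16387 genes). Across all genes tested, 16.4% passed: 7.71% rose and 8.71% fell. The members' log2 differences had a median of -0.14, against 0.00 over all genes, and 6 of the 8 lay below 0. The groups did not overlap in 3 of the 8 genes, which were the 3 called. Over all genes tested this held for 33.3%, 16.4% lower and 16.8% higher in SETDB2-up. The calls were not stable to the transcripts' base composition. After each library's trend with GC content was removed, 0 of the 8 genes passed and 1 was lower at an unadjusted p under 0.05, where 6.17% of all genes still passed. In bulk tissue, fewer cells of a type and less RNA per cell cannot be told apart.

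**Figure D1:**
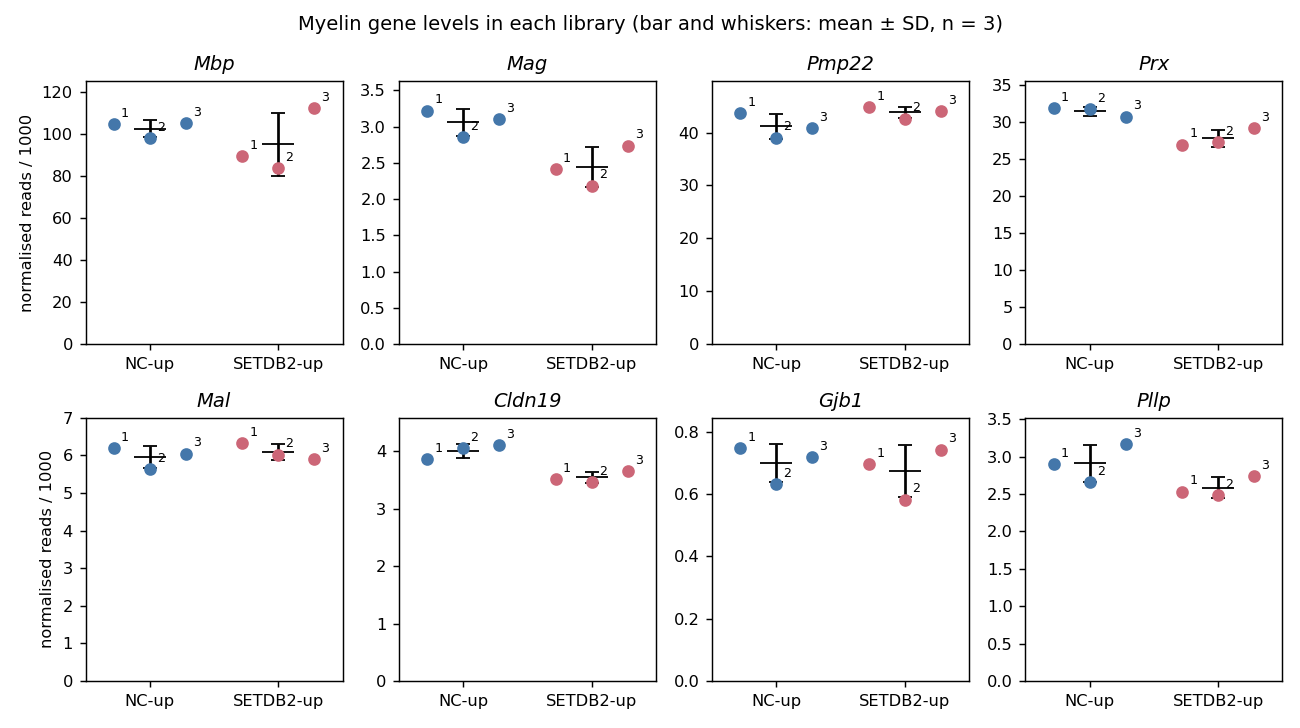
Normalised reads (linear axes from 0, scaled as labelled) of each gene in the 3 NC-up and 3 SETDB2-up libraries, with points numbered by library and bars giving mean ± SD. Every SETDB2-up point of Mag, Prx and Cldn19 lies below every NC-up point, and the groups of the other genes overlap.

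Promoters of the 3 genes that fell, and of Pmp22 and Mal as genes that did not pass, are shown to let their sequences be read beside the transcription factor values given further on. RefSeq's table for GRCm38.p6 held 7 of the 8 genes, Mbp being the one named only, with 16 start sites in all. Each sequence is the 250 bases before a start site on the gene's own strand, at chr7:30914923-30915172 (minus strand) for Mag, chr7:27499074-27499323 (plus) for Prx, chr4:119255191-119255440 (plus) for Cldn19, chr11:63128732-63128981 (plus) for Pmp22 and chr2:127656696-127656945 (minus) for Mal. Capitals mark matches, on either strand, to ACAAAG or ACAAT (SOX proteins), GNGTGGGNG (EGR proteins) and GGAATG (TEAD proteins).
Mag: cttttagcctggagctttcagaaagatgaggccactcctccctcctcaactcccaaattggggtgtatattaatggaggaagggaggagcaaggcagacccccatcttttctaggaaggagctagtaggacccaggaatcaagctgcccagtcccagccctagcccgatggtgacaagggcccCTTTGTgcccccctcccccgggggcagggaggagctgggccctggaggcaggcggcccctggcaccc
Prx: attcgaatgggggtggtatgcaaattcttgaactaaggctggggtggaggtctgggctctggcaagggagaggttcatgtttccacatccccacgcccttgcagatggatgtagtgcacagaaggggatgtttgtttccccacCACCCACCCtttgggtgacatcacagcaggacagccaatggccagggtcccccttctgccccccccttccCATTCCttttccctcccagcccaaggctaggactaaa
Cldn19: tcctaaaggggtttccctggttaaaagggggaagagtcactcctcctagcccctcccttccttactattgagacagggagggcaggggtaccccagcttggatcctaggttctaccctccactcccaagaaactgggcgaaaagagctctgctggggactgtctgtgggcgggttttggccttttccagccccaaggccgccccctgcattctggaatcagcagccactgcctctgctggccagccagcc
Pmp22: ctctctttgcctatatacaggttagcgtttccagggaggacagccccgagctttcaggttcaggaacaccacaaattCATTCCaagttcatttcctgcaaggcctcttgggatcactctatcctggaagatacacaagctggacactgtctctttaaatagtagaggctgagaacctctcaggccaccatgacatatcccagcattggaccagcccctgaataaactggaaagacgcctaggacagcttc
Mal: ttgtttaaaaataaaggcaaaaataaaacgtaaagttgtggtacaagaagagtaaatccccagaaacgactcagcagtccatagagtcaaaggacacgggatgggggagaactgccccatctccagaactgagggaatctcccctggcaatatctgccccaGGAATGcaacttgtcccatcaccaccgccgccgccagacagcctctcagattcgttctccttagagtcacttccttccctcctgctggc
Mag carried ACAAAG on the minus strand of the printed sequence, at -67 to -62 from the start. Prx carried GNGTGGGNG at -107 to -99 and GGAATG at -37 to -32, both on the opposite strand to the gene, and Cldn19 held none of the 4 motifs in this window. Pmp22 had GGAATG at -173 to -168 and Mal at -89 to -84. For genes with several start sites 1 window is printed: Mag had 3 sites, Cldn19 2 and Pmp22 4. ACAAAG was found at 2 of the 3 Mag sites, whose windows overlap and hold the same match. GGAATG was found at 1 of the 3 Mag sites, outside the printed window, and at 1 of the 4 Pmp22 sites. These motifs are short and common. Of 32851 promoter windows of the same length, 16.5% held ACAAAG, 27.7% ACAAT, 12.7% GNGTGGGNG and 12.6% GGAATG.

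Mag encodes myelin-associated glycoprotein, the adhesion molecule of the innermost wrap that faces the axon (gene 17136, GRCm38 chromosome 7, 30899175 to 30914922, minus strand). Its values were 3223, 2855 and 3099.9 in NC-up libraries 1 to 3 and 2416, 2188 and 2739 in SETDB2-up. All 3 SETDB2-up libraries lay below all 3 of NC-up, with SETDB2-up 2 lowest and SETDB2-up 3 closest to the NC-up range. The means were 3059 ± 187 and 2448 ± 277 (SD, n = 3 each), a log2 difference of -0.33 ± 0.07 (SE; 95% interval -0.48 to -0.17; adjusted p = 0.00583, limma). The call held when any single library was left out, with limma adjusted p of at most 0.0422. It was lost after the GC correction (log2 -0.16, adjusted p = 0.192, limma), though with the replicate number as a block beside that correction it passed at the same log2 difference (adjusted p = 0.0236, limma). It was also lost without SETDB2-up libraries 1 and 2 (log2 -0.16, adjusted p = 0.423, limma).

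Prx encodes periaxin, a scaffold protein that links the Schwann cell's outer membrane to its cytoskeleton (gene 19153, chromosome 7, 27499305 to 27520041, plus strand). It measured 31817, 31678 and 30703 in NC-up against 26935, 27301 and 29127 in SETDB2-up. The groups did not overlap, and the spread within each was narrow, the highest library being 1.04 times the lowest in NC-up and 1.08 times in SETDB2-up. The log2 difference was -0.18 ± 0.05 (SE; adjusted p = 0.0324, limma), from means of 31399 ± 607 and 27787 ± 1174 (SD, n = 3 each). At 57.7% GC, the Prx transcript is richer in G and C than 88.7% of genes, and the GC correction brought its difference to -0.01 (adjusted p = 0.935, limma). The call was also lost without any 1 of NC-up libraries 1, 2 and 3 or SETDB2-up libraries 1 and 2 (limma adjusted p 0.0655 to 0.138).

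Cldn19 encodes claudin-19, a tight junction protein of the Schwann cell's non-compact myelin (gene 242653, chromosome 4, 119255441 to 119262438, plus strand). It measured 3871, 4054 and 4108 in NC-up against 3517, 3469 and 3660.4 in SETDB2-up, again without overlap. The means of 4011 ± 124 and 3549 ± 99.4 (SD, n = 3 each) gave a log2 difference of -0.18 ± 0.06 (SE; adjusted p = 0.0373, limma). After the GC correction it was -0.10 (adjusted p = 0.262, limma), and the call was lost without NC-up library 2 or 3 or SETDB2-up library 1 or 2 (limma adjusted p 0.119 to 0.134). Both Prx and Cldn19 are crossed by genes on the opposite strand, and how the counter treated strand was not given in the sources used here, so reads of such pairs may not be separated. Gm12927, opposite Cldn19, fell from 936, 981 and 879 to 629.8, 649.9 and 695 (log2 -0.50 ± 0.08, adjusted p = 3.77e-04, limma). Gm15541, opposite Prx, fell from 631, 587 and 439 to 404, 431 and 374 (log2 -0.44 ± 0.12, adjusted p = 0.0151, limma). From means of 932 and 658, the difference of Gm12927 was not small beside that of Cldn19, with means of 4011 and 3549. The part of opposite-strand reads in the values of Prx and Cldn19 was not tested.

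Mbp encodes myelin basic protein, which holds the cytoplasmic faces of the membrane together (gene 17196, chromosome 18, 82475091 to 82585637, plus strand). It ranked 4 of all genes by mean value, and measured 104847, 98076 and 105359 in NC-up against 89721, 83986 and 112376 in SETDB2-up. SETDB2-up 3 was the highest of all 6 libraries and the other SETDB2-up libraries were the lowest, so the groups overlapped. The log2 difference was -0.12 ± 0.08 (SE; 95% interval -0.29 to 0.05; adjusted p = 0.354, limma). Without SETDB2-up 3 it was -0.24 and passed, and without SETDB2-up 1 and 2 it was 0.13. The call for Mbp thus depended on which SETDB2-up libraries entered. Gm52337, on the opposite strand, measured 955 to 1181 in NC-up against 891 to 1143 in SETDB2-up.

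Pmp22 encodes peripheral myelin protein 22, a compact myelin membrane protein whose human gene is sensitive to dosage (gene 18858, chromosome 11, 63128982 to 63159547, plus strand). It was the member with the highest log2 difference. It measured 43600.2, 39032 and 40804 in NC-up against 44813, 42629 and 43979.7 in SETDB2-up. The ranges overlapped, and the difference was 0.09 ± 0.06 (SE; 95% interval -0.03 to 0.21; adjusted p = 0.302, limma). It passed under 0 of the 19 alternative settings, and without SETDB2-up libraries 1 and 2 it was 0.10 (adjusted p = 0.569, limma).

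Mal and Pllp encode proteolipids of the MARVEL family, which sit in lipid-rich membrane and are associated with its traffic. Mal (gene 17153, chromosome 2, 127633226 to 127656695, minus strand) measured 6195, 5628 and 6049 in NC-up against 6333, 6025 and 5909 in SETDB2-up. Its log2 difference was 0.03 ± 0.06 (SE; 95% interval -0.09 to 0.15; adjusted p = 0.746, limma). For Pllp, plasmolipin (gene 67801, chromosome 8, 94674895 to 94696242, minus strand), the values were 2902, 2659.5 and 3165 in NC-up against 2532, 2484 and 2744 in SETDB2-up. Only SETDB2-up 3 reached into the NC-up range. The Pllp difference was -0.17 ± 0.07 (SE; 95% interval -0.31 to -0.02; adjusted p = 0.101, limma), close in size to those of Prx and Cldn19. Without SETDB2-up libraries 1 and 2 it was -0.08 (adjusted p = 0.777, limma).

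Gjb1 encodes connexin 32, the gap junction channel that joins adjacent layers of one Schwann cell's myelin (gene 14618, chromosome X, 101376376 to 101385629, plus strand). It had the lowest mean value of the 8, at 747, 632 and 719.6 in NC-up against 697, 582 and 743 in SETDB2-up. These ranges overlapped. The log2 difference was -0.06 ± 0.10 (SE; 95% interval -0.26 to 0.15; adjusted p = 0.734, limma) and 0.09 after the GC correction, so its sign was not settled.

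Per kilobase of the longest annotated transcript, the order of levels was the same in both groups. In NC-up, Pmp22 stood at 22583 ± 1264 and Mbp at 21422 ± 847 normalised reads per kb, and these overlapped in both groups. They were followed by Prx at 5779 ± 112 and Mal at 2145 ± 106. Pllp at 1510.3 ± 131, Mag at 1257 ± 76.9, Cldn19 at 962 ± 29.8 and Gjb1 at 441 ± 37.8 came next (SD, n = 3 each). From Mbp downwards, neighbours in this order did not overlap in either group. In SETDB2-up, Mag and Cldn19 came close, the lowest Mag library at 899 and the highest Cldn19 library at 878. The 8 genes together held 0.887% to 0.963% of the reads in NC-up and 0.815% to 0.960% in SETDB2-up, of which Mbp alone made up 0.471% to 0.512% and 0.406% to 0.536%.

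Ratios between members remove any scaling of a whole library, but keep any trend with GC content. Of 28 pairs, 11 had groups without overlap. The smallest p that 3 against 3 can give is 0.1 in an exact two-sided permutation test, so none could pass. In that test the 11 pairs stood at 0.25 after adjustment over the pairs (Benjamini-Hochberg). The pairs reuse the same 8 genes, and the share over pairs of other genes was not counted. The log2 ratio of Mag to Pmp22 was -3.76, -3.77 and -3.72 in NC-up against -4.21, -4.28 and -4.0 in SETDB2-up. The NC-up libraries lay within a few hundredths of each other and every SETDB2-up library lay lower. Mag to Mal went the same way, from -0.94, -0.98 and -0.96 to -1.39, -1.46 and -1.11. In GC content Mag, at 57.6%, lies above Pmp22 at 48.6% and Mal at 48.9%. The log2 differences of Mag, Pmp22 and Mal were -0.33, 0.09 and 0.03. After the GC correction they were -0.16, 0.05 and 0.00. Prx to Cldn19 kept one level, at 3.04, 2.97 and 2.90 against 2.94, 2.98 and 2.99.

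The size of a member's difference went with its transcript's GC content, as it did for genes at large. Of the tenth of genes lowest in GC, 418 rose and 23 fell, with a median log2 difference of 0.21. Of the tenth highest in GC, 5 rose and 530 fell, with a median of -0.23. Prx at 57.7% GC and Mag at 57.6% lay at the GC-rich end, and Pmp22 at 48.6% and Mal at 48.9% lay lowest among the 8. Genes within 1 percentage point of Prx in GC had a median of -0.15 with a middle range of -0.26 to -0.07, which holds the -0.18 of Prx. Mag, at -0.33, lay below the range of -0.26 to -0.06 of genes of its GC content. Gjb1 is GC-rich too, at 56.7%, but its -0.06 was above the -0.14 of its peers. The part of base composition in these differences beyond the correction was not tested.

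**Figure D2:**
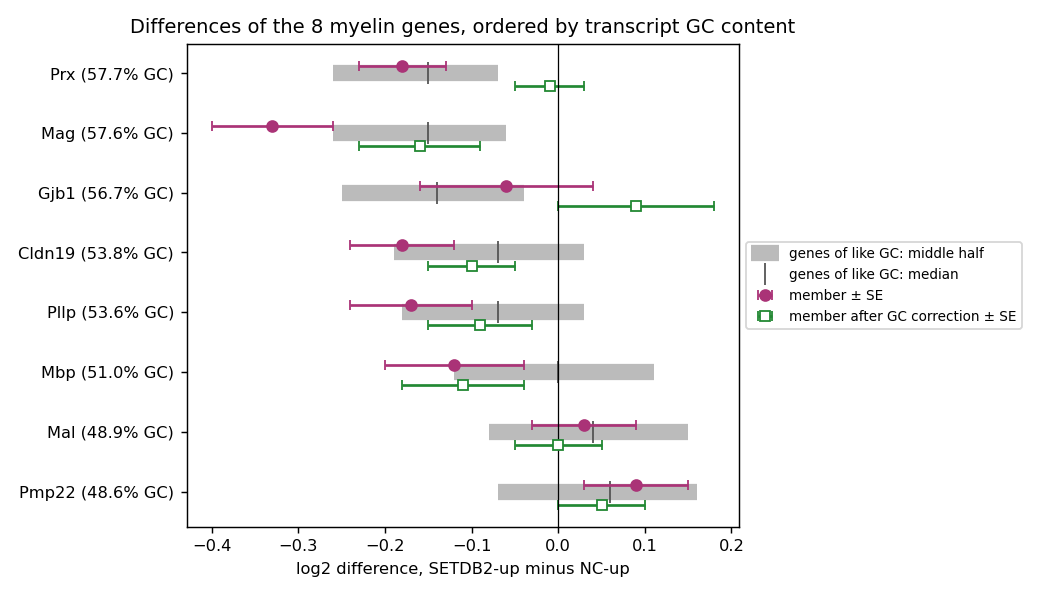
Log2 difference (SETDB2-up minus NC-up, ± SE) of each gene before and after the GC correction, ordered by transcript GC content, over the median and the middle range (lower to upper quartile) of all genes within 1 percentage point of its GC. Mag lies left of its grey bar at -0.33, Prx lies within its bar at -0.18, and Prx moves to -0.01 once corrected.

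The SETDB2-up libraries took one order over most members. SETDB2-up 2 was the lowest of its group for 6 of the 8 genes and SETDB2-up 3 the highest for 6, and both held for 5 (62.5%). That order is the most common one among the members, so their own share follows from the choice and is no test. Over all genes tested that order was found in 3169 of 16387 (19.3%), and in the list of oligodendrocyte and central myelin genes in 13 of 20 (65.0%). It was also frequent in the lists for astrocytes (5 of 10), endothelium and mural cells (7 of 15) and skeletal muscle (4 of 10). Other myelin and sheath proteins (14 of 39) and satellite glia (5 of 15) followed. It was found in 0 of 26 genes for nodes of Ranvier and in 0 of 17 for fibroblasts and perineurium. The oligodendrocyte list summed to 18127, 15643 and 16676 in NC-up against 15716, 13680.3 and 19395 in SETDB2-up, so it was lowest in SETDB2-up 2 and highest in SETDB2-up 3. Of that list, 0 rose and 5 fell. Mobp, a gene of central myelin, measured 5462, 4618 and 5107 in NC-up against 4789.8, 4040.0 and 7079 in SETDB2-up. Mog, on the outer face of central myelin, measured 212, 129 and 218 in NC-up against 169, 136 and 231 in SETDB2-up. Cldn11, the claudin of central myelin, fell from 854, 736 and 784 to 598, 489 and 688 (log2 -0.43 ± 0.10, adjusted p = 0.00900, limma), and Mal2, Sox8 and Nkx6-2 fell by 0.28, 0.45 and 0.56 on the log2 scale. After the GC correction 2 of the 5 still passed, Cldn11 at -0.42 and Mal2 at -0.43, while Sox8 at -0.36 and Nkx6-2 at -0.21 did not. Unlike Mobp, Mog and Cldn11, Mal2 was lowest in SETDB2-up 1, at 1173, 1226 and 1226 in SETDB2-up libraries 1, 2 and 3. Whether Mal2 reports on central myelin in this tissue was not tested. None of the list's measured genes was at 0 in all libraries. The part of central myelin RNA in the members' values was not tested.

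**Figure D3:**
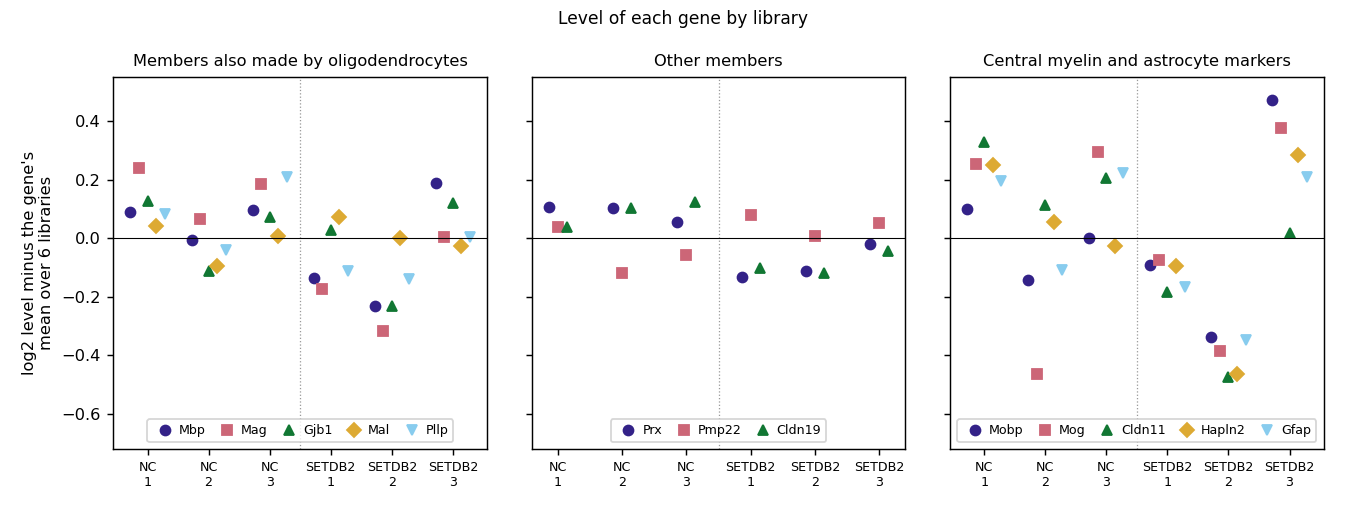
Log2 level of each gene in each library minus that gene's mean over the 6 libraries, for 5 members that oligodendrocytes also make (left), 3 other members (middle) and 5 genes of oligodendrocytes or astrocytes (right), of which Hapln2 and Gfap were chosen after their values were seen. Mbp and Mobp stand highest in SETDB2-up 3 and lowest in SETDB2-up 2. Within SETDB2-up, all 5 genes on the right were lowest in library 2 and highest in library 3. That order held for 13 of 20 listed oligodendrocyte genes and 5 of 10 listed astrocyte genes, so the panel does not stand for either list. Gfap is also on the list of immature, non-myelinating and repair Schwann cell genes. Mag (left) and Prx and Cldn19 (middle) do not reach their NC-up levels in any SETDB2-up library, while the groups of Pmp22 (middle) overlap. Of the SETDB2-up libraries, Mal (left) is lowest in SETDB2-up 3.

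Among 39 other proteins of myelin and the Schwann cell sheath, 4 rose, 7 fell and 28 did not pass, with a median log2 difference of 0.02. Cadm4, an adhesion molecule that binds the axon, fell from 8510.1, 8576 and 8427 to 6074, 6118 and 6903 (log2 -0.42 ± 0.06, adjusted p = 1.05e-04, limma). Cldn5 fell by 0.40 and Fgfr2 by 0.58 on the log2 scale, and Dmd, the dystrophin gene, rose by 0.38. After the GC correction 0 of the 39 rose and 5 fell, Cadm4 and Fgfr2 among them at -0.19 and -0.58, while Cldn5 at -0.16 and Dmd at 0.20 did not pass. Ank2 and Ndrg1, the most abundant of those that did not pass, differed by 0.19 and 0.03. Cldn5 is also on the endothelium list and Ank2 on that for nodes of Ranvier, so in bulk tissue their values are not those of the sheath alone.

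Transcription factors and cofactors of the Schwann cell held the most falls of the lists for myelin biology: of 29 genes, 13 fell, 1 rose and 15 did not pass, with a median of -0.19. Of all genes tested, 8.71% fell. After the GC correction 9 of the 29 fell and 0 rose, where 620 of 15513 genes fell in all. The list was chosen with earlier results of these data known, so these counts are no test of it. Sox10 measured 5649.7, 6252 and 6394 in NC-up against 4283, 4223 and 4749.9 in SETDB2-up. Every SETDB2-up library was below every NC-up library, and the log2 difference of -0.46 ± 0.06 (adjusted p = 8.58e-05, limma) passed under all 19 alternative settings, at -0.19 after the GC correction (adjusted p = 0.0328, limma). Nab2, a cofactor of EGR proteins, measured 782, 822 and 865 against 539, 507 and 543 (log2 -0.64 ± 0.08, adjusted p = 5.45e-05, limma). Pou3f1, a POU factor of the promyelinating stage, measured 709, 917 and 838 against 474, 525 and 427 (log2 -0.78 ± 0.10, adjusted p = 5.67e-05, limma). Notch1, a receptor whose signal opposes myelination, fell by 0.45 on the log2 scale. Chd4 at -0.07 and Zeb2 at 0.16 did not pass. Egr2, chosen after its values were seen, measured 1005, 859 and 888 in NC-up against 795, 1011 and 1040.5 in SETDB2-up, and the groups overlapped (log2 0.04 ± 0.10, adjusted p = 0.807, limma). Sox10 is also made by satellite glia and several of these factors by neurons, so in this tissue their values are not those of Schwann cells alone.

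**Figure D4:**
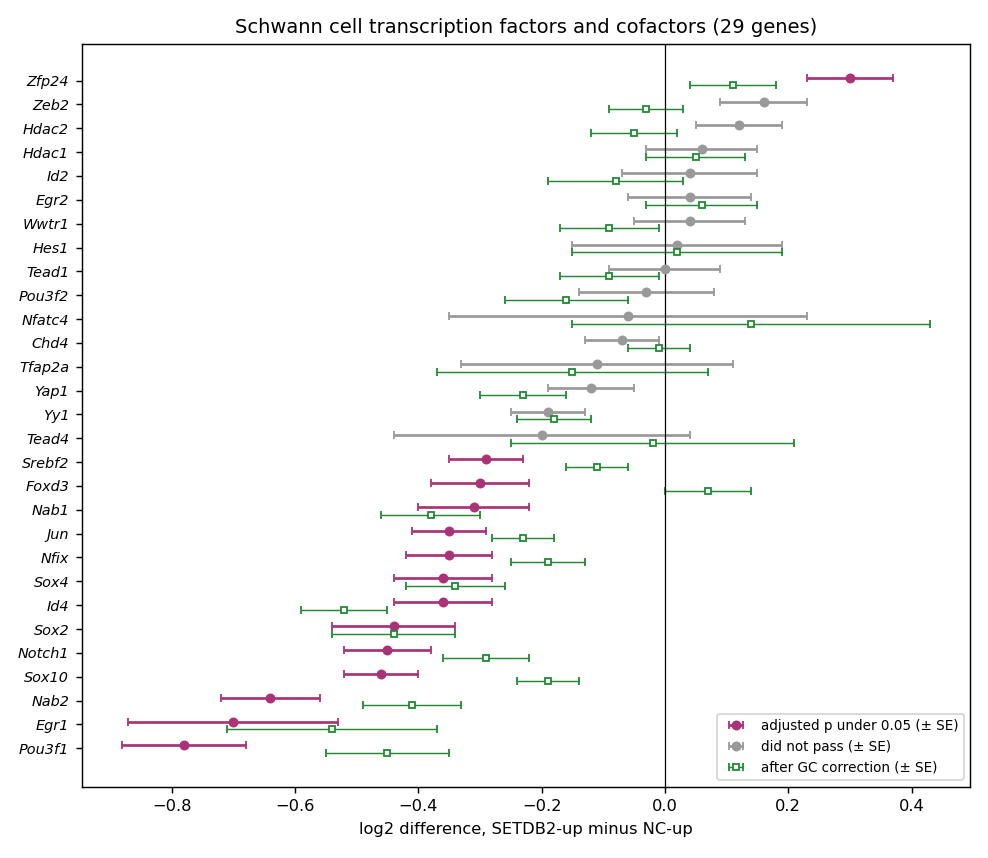
Log2 difference (SETDB2-up minus NC-up, ± SE) of 29 transcription factors and cofactors of the Schwann cell, before and after the GC correction. Pou3f1 lies lowest at -0.78, Sox10 at -0.46 and Egr2 near 0 at 0.04, and 13 genes fell while 1 rose.

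Of 27 genes for myelin lipids and fatty acids, 1 rose and 7 fell, with a median of -0.07. Gal3st1, which makes sulfatide, fell by 0.41 on the log2 scale (adjusted p = 0.00185, limma), and the sterol and fatty acid regulators Srebf2 and Srebf1 fell by 0.29 and 0.27. Elovl7, a fatty acid elongase, rose by 0.25. The abundant desaturases Scd2 and Scd1 differed by -0.01 and 0.10 and did not pass. After the GC correction none of the 4 called genes named here passed (Gal3st1 -0.19, Srebf2 -0.11, Srebf1 -0.09 and Elovl7 0.08). The 3 of the 27 that then fell were Sqle, Lss and Cyp51, enzymes of sterol synthesis named after their values were seen, of which Lss alone had passed before it.

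Of 34 genes for signalling between axon and Schwann cell, 2 rose and 2 fell, with a median of -0.03, where 16.4% of all genes passed. Akt1 fell by 0.32 and Rac1 by 0.19, Nf1 rose by 0.27 and Adam22 by 0.24, and Mapk3 at -0.07 and Prnp at 0.07 did not pass. Rac1 at -0.24 still passed after the GC correction, while Akt1 at -0.10, Nf1 at 0.15 and Adam22 at 0.12 did not. At nodes of Ranvier and the regions beside them, 4 of 26 genes rose and 3 fell. The paranodal adhesion gene Cntn1 rose by 0.29 and Cadm4, named above, is on this list too, while Sptan1 at 0.12 and Kcnab2 at -0.11 did not pass. Cntn1 at 0.14 no longer passed after the GC correction, and Sptan1 at 0.16 did. Among 18 genes of immature, non-myelinating and repair Schwann cells, 3 rose and 3 fell. Cdh19 rose from 876, 919 and 867 to 1463, 1478 and 1355 (log2 0.69 ± 0.07, adjusted p = 4.17e-06, limma) and Scn7a rose by 0.39. Jun, a driver of the repair state, fell by 0.35 and Sox2 by 0.44 on the log2 scale. These 4 genes also passed after the GC correction, at 0.46 for Cdh19, 0.19 for Scn7a, -0.23 for Jun and -0.44 for Sox2.

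Lists for other cells of the ganglion gave the setting of these values. Of 15 satellite glia genes, 2 rose and 1 fell (Cdh19 by 0.69 and Ednrb by 0.19 upwards, Bcan at -0.21), and of these Ednrb at 0.06 and Bcan at 0.04 did not pass after the GC correction. Of 10 astrocyte genes, 1 fell, Gjb6 at -0.51, and of 22 sensory neuron genes, 6 rose and 1 fell. In fibroblasts and perineurium 3 rose and 5 fell of 17. In endothelium and mural cells 1 rose and 3 fell of 15, and in macrophages 1 rose and 1 fell of 15. Skeletal muscle had 0 rising and 4 falling of 10, epithelium and keratinocytes 0 and 5 of 8, and liver 9 and 0 of 12. The part of these cells in the members' values was not tested.

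The genes whose profile over the 6 libraries was most like the members' median were not myelin genes. The members' median centred log2 level was 0.09, -0.02 and 0.08 in NC-up against -0.11, -0.13 and 0.00 in SETDB2-up. Of 12232 other genes with a mean value of at least 100, Fcho1 and Cbx7 (Pearson r = 0.996 each), Ndufa1 and Rpl37a (0.995 each), Timm10 (0.994), Drap1 and Zfp467 (0.993 each) and Vrk3 (0.991) came first. These r are over 6 libraries that share depth and base composition effects and carry no test. Of the 8, Rpl37a was the one that passed, at -0.27 (adjusted p = 0.0200, limma).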

How the data were processed

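Messenger RNA of 6 mouse trigeminal ganglion libraries was sequenced after poly(A) selection. The reads were handled with FastQC and HISAT2 on GRCm38, per the submitters' processing notes. Not given in the sources used here were counter, strand setting, annotation, filter and scaling method. The deposited values are a normalised signal: read counts that the authors divided by 1 factor per library, as the values show (100% came out as whole reads, tolerance 0.001 read), so 3 reads correspond to 0.128 to 0.155 CPM. Within each group the libraries differed by more than counting noise (chi-square over degrees of freedom 3.95 to 9.87).

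Groups came from the labels. The test was limma (3.58.1, R 4.3.3) with a mean-variance trend on log2(value + 1), which understates changes of low genes, over the 16387 genes that reached a value of 1 in at least 3 libraries (28 removed), with Benjamini-Hochberg adjustment at 0.05. The design assumed counts or named units; as the values are normalised, edgeR (4.0.16) and DESeq2 (1.42.0) on recovered reads were alternatives, beside voom, other pseudocounts and filters, scaling to neuron genes, removal of libraries or of genes under an opposite-strand gene, the replicate number as a block, and a GC correction. That correction subtracts a loess trend (span 0.3) of each library's log2 values on the GC of the longest GENCODE M21 transcript, matched for 94.7% of genes. The fit was also run on simulated counts with the same spread setting for all genes and no GC trend. That run does not bear on how far such a trend enters the members' calls.

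Named were the members, up to 4 called genes of each list by p, the 2 most abundant others of the pathway lists, and the 8 genes most like the members. Members and lists were chosen with earlier results of these data known. Genes that this rule names in the neuronal, connective, vascular, immune, muscle, epithelial and liver lists are given as counts only, apart from Alb, a narrowing made after their values were seen. A gene that the rule names elsewhere is not reported here.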

Additional observations from a re-analysis of the deposited data

How the results depend on the processing

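The members that fell numbered 3 with edgeR, with DESeq2, at a pseudocount of 0.1, under other filters and without genes under an opposite-strand gene. The opposite-strand setting removed none of the 8 members, since it takes out only genes whose opposite-strand gene holds at least 4 times their reads. It therefore cannot show how far reads of Gm12927 or Gm15541 enter the values of Cldn19 or Prx. The members that fell numbered 5 with limma-voom, where Mbp (-0.19) and Pllp (-0.20) passed. Over all genes that setting called 3515 (21.4%), against 2690 (16.4%) in the main test. The GC correction left 0 members and 957 genes; its log2 differences were -0.16 for Mag, -0.01 for Prx, -0.10 for Cldn19, 0.00 for Mal and 0.09 for Gjb1. Scaling each library to the sensory neuron genes shifted the median of all genes to -0.17 and gave 5180 genes (234 up, 4946 down, against 1263 and 1427) and 5 members, with Mbp at -0.29, Pllp at -0.34, Pmp22 at -0.08 and Mal at -0.14.

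Leaving out 1 library gave 1082 (without SETDB2-up 1) to 3335 genes (without SETDB2-up 3); it was 1611 without NC-up 2 and 1575 without SETDB2-up 2. Members numbered 1 (without NC-up 2 or 3, SETDB2-up 1 or 2) to 5 (without SETDB2-up 3). Ranges of log2 were -0.24 to -0.03 for Mbp, -0.21 to -0.15 for Prx, -0.01 to 0.06 for Mal, -0.20 to -0.16 for Cldn19, -0.13 to 0.05 for Gjb1 and -0.23 to -0.10 for Pllp. Without SETDB2-up 1 and 2, 447 genes and 0 members passed, with Mbp at 0.13, Mag at -0.16, Prx at -0.11, Mal at -0.01, Cldn19 at -0.13 and Gjb1 at 0.09; fewer samples enter this fit. The cause of the other changes was not tested.

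Same-numbered libraries correlated at 0.081, 0.088 and 0.071 in their deviations from the group means, so the numbers were not taken to pair the samples, although each library correlated best with its own number. With the replicate block 3618 genes (1695 up, 1923 down) and 4 members passed, Pllp at -0.17 (adjusted p = 0.0244, limma). With the block and the GC correction 1 member passed, Mag at -0.16 (adjusted p = 0.0236, limma), with Prx at -0.01, Cldn19 at -0.10, Mal at 0.00 and Gjb1 at 0.09.

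Other named genes that changed sign did not pass in the main test, apart from Bcan. With the GC correction, alone or with the block, Bcan was 0.04, Kcnab2 0.06, Mapk3 0.09 and Zeb2 -0.03. Under neuron scaling Ndrg1 was -0.14, Scd1 -0.07, Zeb2 -0.01, Prnp -0.10, Sptan1 -0.05 and Mobp -0.14, and under voom Ndrg1 was -0.01 and Mobp -0.10. Without SETDB2-up 1 and 2, Scd2 was 0.02, Zeb2 -0.03, Mapk3 0.06 and Mog 0.35. Leaving out 1 library gave -0.03 to 0.06 for Ndrg1, -0.04 to 0.03 for Scd2, -0.30 to 0.12 for Mog and -0.20 to 0.21 for Mobp. Every member had at least 582 normalised reads in each library, so the number of libraries limits precision more than counting does.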
